A study of Mus musculus with 6 samples.

Results

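The genes described here are 49 genes of cell division: 25 that act in mitosis and 24 that act in DNA replication or in entry into S phase. They were taken as a fixed list of gene names and matched to the gene column of the deposited counts. No measured value enters the matching, but the list was chosen with earlier results of these data known. All 49 names matched 1 row each among 24951 genes, and all 49 passed the filter on low counts that left 14934 genes for testing. A dividing cell first copies its DNA, for which the E2F transcription factors and cyclin E open S phase, a ring of MCM proteins unwinds the DNA and polymerases with the sliding clamp PCNA copy it. It then enters mitosis under cyclin B and CDK1, builds a spindle, holds at a checkpoint until each chromosome is attached, and separates them when the anaphase-promoting complex marks its targets for destruction. Most of these transcripts are made in waves in dividing cells and are low in resting cells, so that in bulk RNA their level is commonly read as a measure of how much of a sample is dividing. The lung of a newborn mouse is still adding capillaries, and its endothelium is known to contain dividing cells.

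Polyadenylated RNA was sequenced from mouse lung cells at postnatal day 5, after enzymatic digestion and selection on magnetic beads coated with an antibody to the endothelial protein CD31, in 3 control and 3 mutant libraries, named controls 1 to 3 and mutants 1 to 3 by their replicate numbers. Controls were Smad4 f/f pups, which carry floxed alleles of Smad4, the shared SMAD partner of BMP and TGF-beta signaling, and no Cre; the labels also call them wildtype. Mutants were Smad4 f/f;Cdh5-CreERT2 pups, labelled Smad4 iECKO, in which a tamoxifen-activated Cre recombinase is made from the Cdh5 promoter of endothelial cells. No dose or day of tamoxifen is in the labels, and no group carries the Cre with an intact Smad4, so an effect of Cre or of tamoxifen acting with Cre cannot be told apart from one of the deletion. One sentence of the protocol names the mice HHTf/f and HHTiECKO without saying how these relate to the Smad4 genotypes. The libraries are said to come from separate biological samples. All 6 carry the tag lit14 in their sample descriptions, which the labels do not explain, so that whether the pups shared a litter is not known.

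Promoter sequences are shown first, with short elements known from cell cycle promoters counted in each set. RefSeq windows on GRCm38.p6, each running from 250 bases before to 50 bases after a transcript start, were found for 41 of the 49 genes (45 windows), and for Aurkb, Ccna2, Ccne2, Foxm1, Gins2, Kif20a, Mcm4 and Tpx2 there was none. Both strands were searched for the letters TTTGAA, the cell cycle genes homology region bound by the MuvB complex, for CCAAT, the site of NF-Y, and for the E2F site in the 4 forms TTTCCCGC, TTTGGCGC, TTTCGCGC and TTTGCCGC. The E2F forms can overlap each other on opposite strands, and matches of different elements can share no more than an end base. TTTGAA was in 16 of 21 windows of mitotic genes (76.2%) and 3 of 24 of replication genes (12.5%), against 17.9% of all 32851 windows of this length. CCAAT was in 19 of 21 and 17 of 24 (90.5% and 70.8%), against 37.4% of all windows. An E2F form was in 1 of 21 windows of mitotic genes (4.76%) and 8 of 24 of replication genes (33.3%), against 2.26% of all windows. A match of letters is a description of the window and does not show that a factor binds there. No test was made of these shares.

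The 250 bases before the start are shown 5′ to 3′ on the gene's strand for examples with high counts that hold the elements and overlap no annotated exon of GENCODE M21. Capitals mark TTTGAA and CCAAT, or their reverse complements TTCAAA and ATTGG, in Mki67 at chr7:135716380-135716629 (minus strand) and Top2a at chr11:99024190-99024439 (minus strand). They mark E2F forms, or their reverse complements, in Mcm6 at chr1:128359706-128359955 (minus strand) and Mcm5 at chr8:75109259-75109508 (plus strand).
Mki67: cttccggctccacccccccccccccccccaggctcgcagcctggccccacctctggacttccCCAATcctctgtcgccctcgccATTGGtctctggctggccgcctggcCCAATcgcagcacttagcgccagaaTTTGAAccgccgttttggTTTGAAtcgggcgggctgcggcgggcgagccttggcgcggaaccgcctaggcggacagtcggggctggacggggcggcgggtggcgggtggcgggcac
Top2a: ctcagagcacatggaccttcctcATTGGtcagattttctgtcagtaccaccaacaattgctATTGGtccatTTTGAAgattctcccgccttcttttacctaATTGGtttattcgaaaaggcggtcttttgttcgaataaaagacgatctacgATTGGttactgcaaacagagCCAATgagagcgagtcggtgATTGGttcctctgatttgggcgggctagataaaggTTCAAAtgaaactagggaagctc
Mcm6: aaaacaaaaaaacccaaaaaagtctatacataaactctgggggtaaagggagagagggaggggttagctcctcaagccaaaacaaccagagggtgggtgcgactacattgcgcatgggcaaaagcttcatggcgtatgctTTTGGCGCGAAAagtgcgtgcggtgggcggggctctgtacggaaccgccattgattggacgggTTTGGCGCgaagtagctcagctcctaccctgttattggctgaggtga
Mcm5: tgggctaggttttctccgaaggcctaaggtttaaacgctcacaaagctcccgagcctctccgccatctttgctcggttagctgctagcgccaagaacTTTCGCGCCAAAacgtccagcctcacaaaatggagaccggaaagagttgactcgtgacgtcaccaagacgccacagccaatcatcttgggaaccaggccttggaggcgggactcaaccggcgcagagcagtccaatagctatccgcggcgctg
In Mki67 2 copies of TTTGAA began 116 and 98 bases before the start, downstream of 3 CCAAT matches. In Mcm6 and in Mcm5 an E2F form on one strand overlapped another on the opposite strand, and Mcm6 held 1 more form nearer the start.

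Reads assigned to genes numbered 14093564 to 21113926 per library, and no member had fewer than 158 counts in any library. The members together took 0.372% to 0.535% of the assigned reads, with an exact 95% binomial interval of at most ± 0.00325 percentage points that covers counting error only. Smad4, the targeted gene, stood at 188, 177 and 181 CPM in controls 1 to 3 and 88.8, 72.9 and 94.2 CPM in mutants 1 to 3, and the groups did not overlap (edgeR quasi-likelihood test, adjusted p = 0.000604). CPM are counts relative to library size after scaling by TMM factors, and do not account for gene length. All 10 endothelial markers looked for were expressed (1 of them, Tek, fell), with a summed level of 8765 to 9739 CPM per library. Markers of other lung cells were present too, with summed levels of 2210.2 to 4079.7 CPM for 10 epithelial and 3803 to 4329 CPM for 10 fibroblast markers, and how much of the members' counts came from such cells was not tested.

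No difference in cell division genes between mutant and control libraries passed the test, and the controls differed more among themselves than their mean did from that of the mutants. The summed level of the 25 mitotic genes was 2437, 2198 and 3095 CPM in controls 1 to 3 and 2667, 2492 and 2784 CPM in mutants 1 to 3. Control replicate 3 was the highest of the 6 libraries and control replicate 2 the lowest, and the 3 mutants lay between them. The means were 2577 ± 464 and 2648 ± 147 CPM (SD, n = 3 each), a ratio of mutant to control of 1.03. The summed level of the 24 replication genes was 1882, 1539.6 and 2287 CPM in controls 1 to 3 and 1937, 1951 and 2047 CPM in mutants 1 to 3, in the same order at both ends. Their means were 1903 ± 374 and 1978 ± 60.2 CPM, a ratio of 1.04. The difference between group means was smaller than the SD of either group for the mitotic genes, and for the replication genes it lay between the SDs of the 2 groups. The highest control stood 1.41-fold above the lowest for mitotic and 1.49-fold for replication genes, while the same ratio among mutants was 1.12 and 1.06. In bulk RNA a change in the share of dividing cells and a change in these transcripts per dividing cell cannot be told apart.

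**Figure D1:**
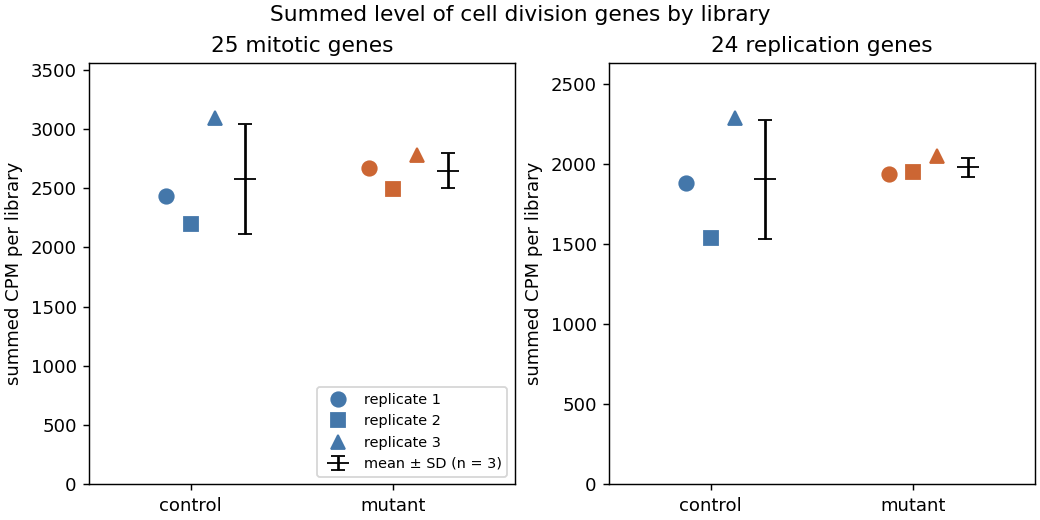
Summed CPM of the 25 mitotic genes (left) and the 24 replication genes (right) in each library, with the y axis from 0; circles, squares and triangles are replicates 1, 2 and 3 and bars give the mean ± SD of 3 libraries. Control replicates 2 and 3 are the lowest and the highest library in both plots, and the 3 mutants lie between them.

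None of the 49 genes passed the test. The edgeR quasi-likelihood test called 0 of 49 members at an adjusted p under 0.05, where 3.27% of all 14934 genes were called. At an unadjusted p under 0.05 it was again 0 of 49, against 14.0% of all genes. DESeq2 and limma-voom also called 0 of 49, against 5.05% and 2.96% of all genes. The 3 mutant and 3 control libraries overlapped for each of the 49, whereas 20.6% of all genes had no overlap. The median log2 fold change of mutant over control was 0.091 for mitotic and 0.045 for replication genes, against -0.0024 over all tested genes. It was above 0 in 20 of 25 mitotic and 16 of 24 replication genes, with 49.5% over all tested genes. The members share their libraries and move together, so these counts are not independent observations.

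A p above the threshold does not show that levels were equal, and the intervals give what size of change these libraries allow. Single log2 fold changes ran from -0.16 for Cenpf to 0.22 for Plk1 among mitotic genes, and from -0.19 for Ccne2 to 0.23 for Ccne1 among replication genes. The 95% interval lay within a 1.5-fold change in either direction for all 25 mitotic genes and for 22 of the 24 replication genes. The exceptions were the cyclin E genes: Ccne1 reached 1.59-fold at its upper bound, and Ccne2 0.641-fold at its lower bound. The intervals are taken gene by gene and are not adjusted for the number of genes.

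**Figure D2:**
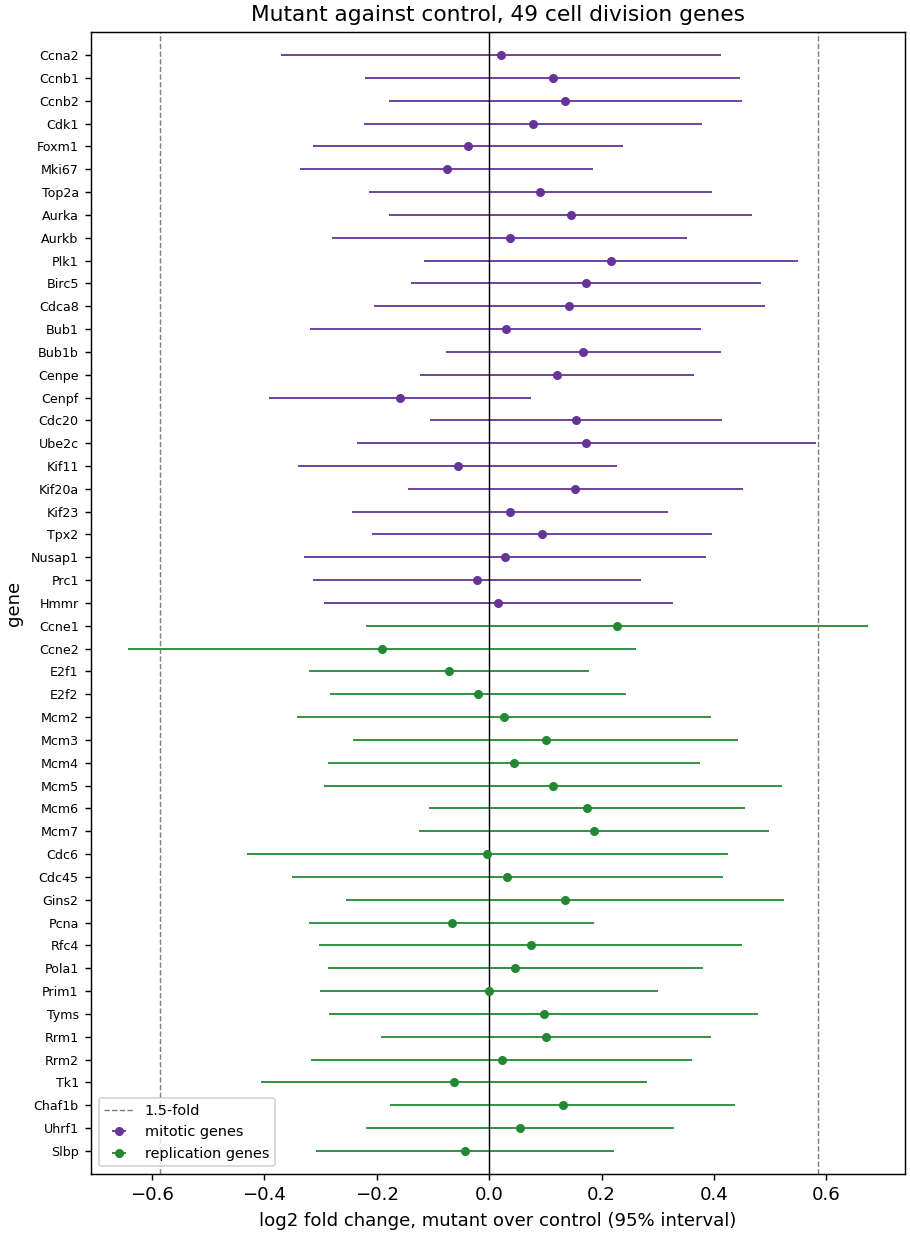
Log2 fold change of mutant over control with its 95% interval from edgeR for each of the 49 genes, mitotic above and replication below; dashed lines mark a 1.5-fold change. Every interval includes 0, and only those of Ccne1 and Ccne2 cross a dashed line.

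Among the genes that drive entry into mitosis, Ccna2 encodes cyclin A, which acts in S phase and early mitosis, Ccnb1 and Ccnb2 encode the B-type cyclins, Cdk1 their kinase, and Foxm1 a transcription factor of the mitotic wave. Ccnb2 stood at 57.9, 50.7 and 76.4 CPM in controls 1 to 3 and 68.2, 65.0 and 70.3 CPM in mutants 1 to 3. The mutants lay inside the range of the controls (log2 fold change 0.14, SE 0.14, 95% interval -0.18 to 0.45, adjusted p = 0.723). Ccna2 stood at 122, 95.2 and 145 CPM in the controls and 121, 103 and 144 CPM in the mutants, with controls and mutants spread alike (log2 fold change 0.021, 95% interval -0.37 to 0.41, adjusted p = 0.971). Ccnb1, Cdk1 and Foxm1 had log2 fold changes of 0.11, 0.078 and -0.038. Part of the Ccna2 exons (12.5% of their bases) overlaps Exosc9 on the opposite strand, and no use of strand is stated for the counting.

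Mki67, which encodes the Ki-67 protein that coats mitotic chromosomes and is widely used to mark dividing cells, stood at 426, 409.8 and 547 CPM in controls 1 to 3 and 465, 405 and 443 CPM in mutants 1 to 3. Control replicate 3 was the highest and mutant replicate 2 the lowest, with control replicate 2 close above it. The group values were 461 ± 74.9 CPM in the controls against 437 ± 30.3 CPM in the mutants (SD, n = 3 each), with log2 fold change -0.076, SE 0.12, 95% interval -0.34 to 0.18, adjusted p = 0.823. Top2a, the topoisomerase that untangles DNA before chromosomes separate, stood at 364, 295 and 448 CPM in the controls and 396, 379 and 406 CPM in the mutants. Its 3 mutants lay within a narrow band inside the controls' range (log2 fold change 0.091, 95% interval -0.21 to 0.40, adjusted p = 0.818).

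Of the mitotic kinases, Plk1 encodes polo-like kinase 1, Aurka the Aurora kinase of spindle poles and Aurkb that of the chromosomal passenger complex, to which Birc5 (survivin) and Cdca8 (borealin) also belong. Plk1 had the largest difference of the mitotic genes, at 36.7, 28.8 and 42.2 CPM in controls 1 to 3 and 38.1, 39.4 and 47.9 CPM in mutants 1 to 3. Mutant replicate 3 was above every control, while mutant replicates 1 and 2 were below control replicate 3 (log2 fold change 0.22, SE 0.15, 95% interval -0.12 to 0.55, adjusted p = 0.573). Aurkb stood at 48.9, 43.3 and 65.0 CPM in the controls and 51.1, 54.9 and 55.6 CPM in the mutants (log2 fold change 0.037, 95% interval -0.28 to 0.35, adjusted p = 0.937). Aurka, Birc5 and Cdca8 had log2 fold changes of 0.14, 0.17 and 0.14, so that all 5 values of the group were above 0 and none passed the test.

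Bub1 and Bub1b encode spindle checkpoint proteins that hold anaphase until chromosomes are attached, and Cenpe and Cenpf encode large kinetochore proteins. Bub1b stood at 78.7, 73.6 and 97.5 CPM in controls 1 to 3 and 92.1, 93.2 and 95.4 CPM in mutants 1 to 3. The mutants were tightly grouped just below control replicate 3 and above the other two controls, and Bub1b had the smallest p of the 49 (log2 fold change 0.17, SE 0.11, 95% interval -0.078 to 0.41, adjusted p = 0.553). Cenpf lay on the other side, at 114, 119 and 147 CPM in the controls and 114, 109 and 117 CPM in the mutants, all mutants below controls 2 and 3 (log2 fold change -0.16, 95% interval -0.39 to 0.075, adjusted p = 0.556). Bub1 and Cenpe had log2 fold changes of 0.029 and 0.12. Cdc20, the activator of the anaphase-promoting complex, stood at 77.4, 65.7 and 90.6 CPM in the controls and 83.1, 90.8 and 86.5 CPM in the mutants, with mutant replicate 2 level with control replicate 3 (log2 fold change 0.15, 95% interval -0.11 to 0.42, adjusted p = 0.610). Ube2c, the complex's ubiquitin-conjugating enzyme, had a log2 fold change of 0.17 with the widest interval of the mitotic set, -0.24 to 0.58, and 22.8% of its exon bases are shared with Tnnc2 on the other strand.

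Spindle genes were summed at 612, 554 and 779 CPM in controls 1 to 3 and 660.0, 623 and 706 CPM in mutants 1 to 3, again with the mutants between control replicates 2 and 3. They are the spindle motor Kif11, the midzone motors Kif20a and Kif23, the microtubule factors Tpx2, Nusap1 and Hmmr, and Prc1, which bundles microtubules of the midzone. Prc1 stood at 114, 103 and 149 CPM in the controls and 120.0, 113 and 127 CPM in the mutants (log2 fold change -0.021, 95% interval -0.31 to 0.27, adjusted p = 0.962). Kif20a stood at 82.1, 61.8 and 88.3 CPM in the controls and 80.9, 82.8 and 94.97 CPM in the mutants, with mutant replicate 3 highest and control replicate 2 lowest (log2 fold change 0.15, 95% interval -0.14 to 0.45, adjusted p = 0.665). The other 5 log2 fold changes ran from -0.056 for Kif11 to 0.094 for Tpx2. Kif20a shares 29.3% of its exon bases with Cdc23 on the opposite strand.

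In the replication set, the helicase and its loading factors made up the largest group. Mcm2 to Mcm7 encode the ring-shaped helicase, Cdc6 helps load it, and Cdc45 and Gins2 belong to the complex that starts it. The 9 genes summed to 899.7, 663 and 1042 CPM in controls 1 to 3 and 874, 959 and 968 CPM in mutants 1 to 3. Control replicate 2 was the lowest by a wide margin, and all mutants were within the range of the controls. Mcm6 stood at 168, 135 and 196 CPM in controls 1 to 3 and 179.8, 188 and 196 CPM in mutants 1 to 3. Its value was 166 ± 31.0 CPM in the controls against 188 ± 7.95 CPM in the mutants (SD, n = 3 each), with log2 fold change 0.17, SE 0.13, 95% interval -0.11 to 0.46, adjusted p = 0.593. Mcm7 had the largest difference of the group, 0.19, with mutant replicate 2 at 116 CPM above the highest control, at 110.2 CPM. Mcm2, Mcm3, Mcm4 and Mcm5 had log2 fold changes of 0.026, 0.10, 0.045 and 0.11, and Cdc6, Cdc45 and Gins2 of -0.0035, 0.032 and 0.14. Counts of Gins2 are uncertain, since 67.3% of its exon bases lie under Gse1 on the opposite strand.

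The regulators of S phase entry were the only role group of the replication set with more values below 0 than above. Ccne1 and Ccne2 encode the E-type cyclins, and E2f1 and E2f2 activating E2F factors. Ccne1 stood at 18.0, 13.5 and 24.9 CPM in controls 1 to 3 and 20.5, 22.5 and 23.3 CPM in mutants 1 to 3. Control replicate 2 stood apart below the rest and control replicate 3 was highest (log2 fold change 0.23, SE 0.20, 95% interval -0.22 to 0.67, adjusted p = 0.667). E2f2 stood at 51.3, 49.9 and 64.0 CPM in the controls and 57.9, 49.6 and 55.5 CPM in the mutants (log2 fold change -0.020, 95% interval -0.28 to 0.24, adjusted p = 0.960), and Ccne2 and E2f1 had log2 fold changes of -0.19 and -0.072. The difference between Ccne1 and Ccne2 was not tested. Ccne2 shares 17.4% of its exon bases with Ints8 on the other strand, and shares of 11.1% to 12.7% were found for Prc1, Ccna2, Mcm7 and Rfc4. These are shares of bases and not of reads, so how far the counts of these genes are affected is not known.

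Pcna, the sliding clamp of the DNA polymerases, stood at 179, 196 and 242 CPM in controls 1 to 3 and 208, 184 and 197 CPM in mutants 1 to 3. Here control replicate 1 was lowest, control replicate 3 highest, and the mutants inside that range (log2 fold change -0.067, SE 0.11, 95% interval -0.32 to 0.19, adjusted p = 0.843). Rfc4, a subunit of the clamp loader, and Pola1 and Prim1, of the polymerase that lays down primers, had log2 fold changes of 0.074, 0.046 and -0.000759. Of the enzymes that supply nucleotides, Rrm1, the large subunit of ribonucleotide reductase, stood at 151, 122 and 180.4 CPM in the controls and 164, 153 and 170.0 CPM in the mutants (log2 fold change 0.10, 95% interval -0.19 to 0.40, adjusted p = 0.784). Its partner Rrm2, thymidylate synthase Tyms and thymidine kinase Tk1 had log2 fold changes of 0.022, 0.097 and -0.062.

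Among genes of chromatin and histone supply, Uhrf1, which helps copy DNA methylation, stood at 102, 89.9 and 128 CPM in the controls and 109, 107 and 117 CPM in the mutants (log2 fold change 0.056, 95% interval -0.22 to 0.33, adjusted p = 0.886). Chaf1b, of the chromatin assembly factor, stood at 32.1, 25.6 and 37.8 CPM in the controls and 34.1, 34.0 and 36.7 CPM in the mutants (log2 fold change 0.13, 95% interval -0.18 to 0.44, adjusted p = 0.730). Slbp, which binds the stem-loop of histone messenger RNA, had a log2 fold change of -0.043. In each of these genes the mutants lay within the range of the controls.

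The same libraries were at the ends for most of the 49 genes. Control replicate 3 was the highest of the 6 libraries for 20 of 25 mitotic and 23 of 24 replication genes, and for 13.5% of all tested genes. Control replicate 2 was the lowest for 20 of each set, and for 3590 of all 14934 tested genes. The genes not highest in control replicate 3 were Ccnb1, Cenpe, Kif20a and Plk1, highest in mutant replicate 3, and Cdc20 and Mcm7, highest in mutant replicate 2. Mutant replicate 2 was the lowest library for Mki67, Cenpf, Kif11, Ccne2 and E2f2, and control replicate 1 for Foxm1, Kif23, Pcna and Slbp. All 3 mutants lay within the range of the controls for 17 of 25 and 21 of 24 genes, against 20.8% of all tested genes. The SD of log2 CPM was larger among controls than among mutants for each of the 49 genes, and for 56.9% of all tested genes. Its median was 0.27 among controls and 0.099 among mutants for mitotic genes, 0.33 and 0.088 for replication genes, and 0.16 and 0.14 over all tested genes. With 3 libraries a group this difference in spread was not tested, and it rests on 2 control libraries at opposite ends.

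**Figure D3:**
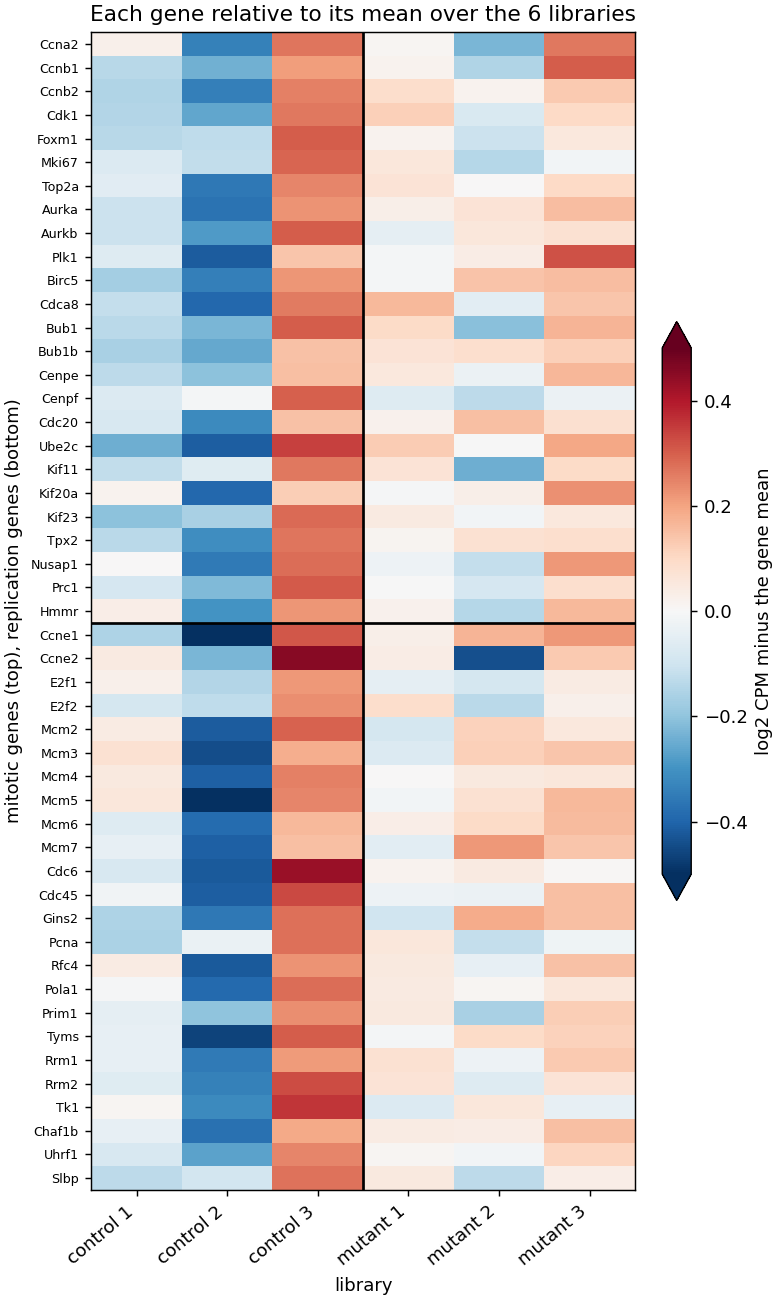
Log2 CPM of each gene minus its mean over the 6 libraries, with 1 row per gene (mitotic above the line, replication below) and 1 column per library; red is above and blue below the gene's mean. The column of control replicate 3 is red and that of control replicate 2 mostly blue across both sets, while most cells of the mutant columns are paler.

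Markers of other cell types differed between the same libraries. Relative to the mean of the controls, the median log2 level of the mitotic genes was -0.072, -0.24 and 0.30 in controls 1 to 3 and 0.079, 0.032 and 0.19 in mutants 1 to 3. For the replication genes it was 0.0057, -0.32 and 0.28 in controls 1 to 3 and 0.047, 0.044 and 0.14 in mutants 1 to 3. The epithelial markers stood at 0.42, 0.11 and -0.48 in controls 1 to 3 and -0.038, 0.047 and -0.20 in mutants 1 to 3, lowest where the cell division genes were highest. Fibroblast markers stood at 0.15, 0.16 and -0.34 in controls 1 to 3 and 0.13, 0.38 and -0.068 in mutants 1 to 3, and smooth muscle and pericyte markers at 0.18, 0.12 and -0.37 in controls 1 to 3 and 0.13, 0.45 and -0.091 in mutants 1 to 3, also lowest in control replicate 3. Mesothelium markers were lowest there too (-0.58). Macrophage markers stood at -0.19, 0.080 and 0.13 in controls 1 to 3 and -0.14, -0.18 and 0.37 in mutants 1 to 3. Lymphocyte markers stood at -0.20, 0.098 and 0.074 in controls 1 to 3 and -0.33, -0.40 and 0.24 in mutants 1 to 3. Neutrophil markers were lowest in control replicate 1 (-0.41), and the 2 tested red cell precursor markers were highest in control replicate 3 (0.18). The 10 epithelial markers summed to 2210.2 to 4079.7 CPM among controls and 2885 to 3279 CPM among mutants, the 10 fibroblast markers to 3900.3 to 4329 and 3803 to 4212 CPM, and the 10 smooth muscle and pericyte markers to 280.2 to 418 and 404 to 517 CPM. By summed level the fibroblast markers were lowest in mutant replicate 1, at 3803 CPM, and not in control replicate 3, at 3900.3 CPM. Control replicate 3 was the lowest and control replicate 1 the highest for the epithelial sum, with Sftpc, the surfactant protein gene of alveolar type II cells, at 734 and 1359 CPM. None of the 10 epithelial, 10 fibroblast or 10 smooth muscle and pericyte markers passed the edgeR test between the groups, and 0, 1 and 1 of them had an unadjusted p under 0.05. DESeq2 called 0, 0 and 1 of them, and limma-voom likewise. The 10 endothelial markers moved less by their median, at -0.012, -0.072 and 0.069 in controls 1 to 3 and 0.076, 0.070 and -0.042 in mutants 1 to 3. For 5 of these 10 the groups did not overlap, against 20.6% of all tested genes. Their log2 fold changes were above 0 for 7 and below 0 for 3. Divided by the summed level of the endothelial markers, the mitotic genes stood at 0.264, 0.251 and 0.318 in controls 1 to 3. In mutants 1 to 3 they stood at 0.287, 0.262 and 0.303, with the same libraries at both ends. Markers of red cell precursors, which also divide, summed to 8.62 to 13.5 CPM, with 4 of the 9 found at 0 in every library. How reads were counted is not given in the sources used here, so a 0 need not mean that a gene was silent. The part of the cell mixture in the order of the libraries was not tested.

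**Figure D4:**
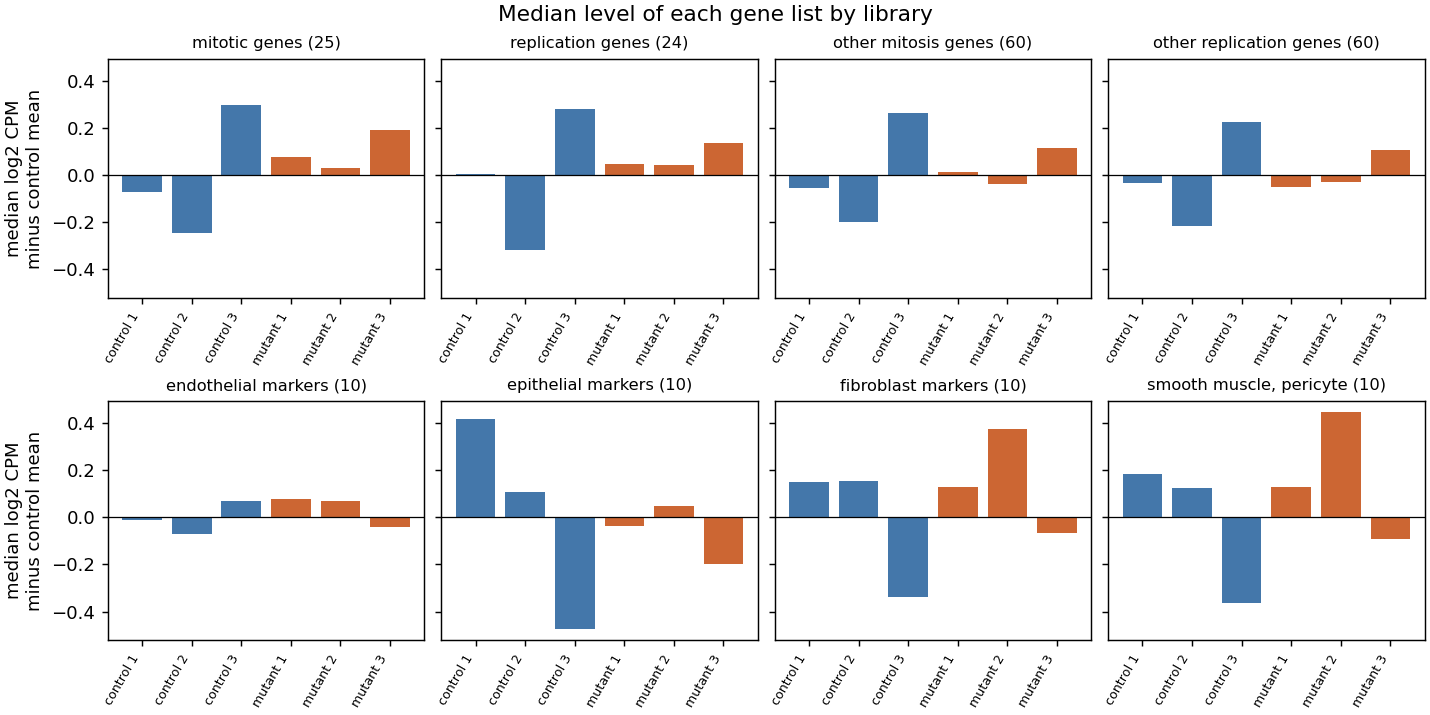
Median log2 CPM of each gene list in each library minus the mean of the controls (bars, blue for controls and orange for mutants; the number of genes is in brackets). Cell division lists are highest in control replicate 3 and lowest in control replicate 2, and the epithelial list is lowest in control replicate 3.

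The sign of the difference depended on which control was left out. Without control replicate 3 the median log2 fold change was 0.25 for mitotic and 0.22 for replication genes, and 48 of 49 values were above 0. Then 13 of 49 were higher in the mutants at an unadjusted p under 0.05, against 7.08% of all genes in that fit, and 0 were called (smallest edgeR adjusted p = 0.127, for Ube2c). Control replicate 3 was the highest library for 43 of the 49, so leaving it out lowers their control mean. The members also move together, so the 13 are not separate support for a difference. With all 6 libraries, or with any other 1 left out, 0 of 49 reached an unadjusted p under 0.05. Without control replicate 2 the medians were -0.024 and -0.089, and 15 of 49 values were above 0. With any 1 of the 6 libraries left out, 0 of 49 were called.

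Levels of single genes were set side by side only per length, as CPM per kilobase of the gene's merged exons in GENCODE M21. They are given as the mean over 6 libraries with the lowest and highest library. Pcna was the most abundant member at 83.7 (74.5 to 101), and its lowest library was above the highest library of every other member. Rrm2 at 44.9 (35.1 to 55.7), Mki67 at 44.6 (40.2 to 54.4), Cdc20 at 44.1 (35.2 to 48.6), Mcm3 at 44.0 (32.0 to 49.4), Top2a at 42.3 (32.8 to 49.7) and Ccnb2 at 42.3 (33.1 to 49.9) followed, and their ranges overlapped, so that their order is not set beyond the spread. At the lower end were Tyms at 6.57 (4.71 to 8.01), Pola1 at 6.38 (4.83 to 7.68), Cdc6 at 4.98 (3.66 to 6.62) and Gins2 at 3.76 (2.90 to 4.50), with neighbouring ranges again overlapping. The place of Gins2 is uncertain, since 67.3% of its exon bases lie under Gse1 on the opposite strand. The annotation used for counting is not given in the sources used here, so the lengths may differ from those of the counted models. Merged exons take in every annotated transcript of a gene and can be longer than the transcript mainly made, which lowers the value per kilobase. The order of the members therefore depends on this choice of length.

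The wider cell cycle lists gave a similar picture, with few genes past the test. Of 60 other mitosis genes 0 were called by edgeR, with 4 at an unadjusted p under 0.05 (all genes: 3.27% and 14.0%), and the list median was 0.036. DESeq2 called 1 of them and limma-voom 0, against 5.05% and 2.96% of all genes. Of 60 other replication genes 1 rose and 0 fell, where 1.93% of all genes rose and 1.34% fell, and the median was -0.00738. Their summed levels had the order of the members, with control replicate 3 highest at 4186 and 3198 CPM and control replicate 2 lowest at 3065 and 2518 CPM. The replication gene that rose was Rad51ap1, a DNA repair gene, at 30.7, 27.8 and 32.3 CPM in controls 1 to 3 and 39.6, 41.5 and 40.9 CPM in mutants 1 to 3. The groups did not overlap (log2 fold change 0.42, SE 0.099, 95% interval 0.20 to 0.64, adjusted p = 0.0476). Of the 14 alternatives, the call held only with DESeq2 (adjusted p = 0.0169) and with edgeR on RLE factors (adjusted p = 0.0495). It ended under the other scalings, both other filters, limma-voom, the replicate block and each fit without 1 library (adjusted p = 0.0513 to 0.175). Fen1, the flap endonuclease of lagging strand synthesis, stood at 48.4, 42.1 and 58.5 CPM in the controls and 58.7, 63.2 and 57.8 CPM in the mutants (log2 fold change 0.27, 95% interval -0.0069 to 0.54, adjusted p = 0.371). Of the mitosis genes with the smallest p, Gtse1, a microtubule-binding protein gene, stood at 15.0, 15.3 and 19.8 CPM in the controls and 21.6, 24.7 and 27.6 CPM in the mutants (log2 fold change 0.56, 95% interval 0.23 to 0.89, adjusted p = 0.0838), and Cdc25b, a phosphatase that activates CDK1, at 64.9, 63.4 and 79.8 CPM in the controls and 53.3, 49.8 and 58.1 CPM in the mutants (log2 fold change -0.37, 95% interval -0.62 to -0.11, adjusted p = 0.144). Gtse1 was called by DESeq2 (adjusted p = 0.0254), with the replicate block (adjusted p = 0.0457) and without control replicate 3 (adjusted p = 0.0455).

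Among 41 tested genes of G1 entry and of the brakes on the cycle, 1 rose, 2 fell and 38 did not pass, with a median of 0.011. Over all genes edgeR called 3.27%. DESeq2 called 4 of the 41 and limma-voom 3, against 5.05% and 2.96% of all genes, and 9 of 41 had an unadjusted edgeR p under 0.05, against 14.0%. Ccng1, which encodes cyclin G1 and is induced by p53, stood at 50.5, 45.1 and 49.3 CPM in controls 1 to 3 and 77.5, 76.6 and 70.9 CPM in mutants 1 to 3. It rose with no overlap between the groups (log2 fold change 0.63, SE 0.092, 95% interval 0.43 to 0.84, adjusted p = 0.00463), and the call held in each alternative run. Rb1, which encodes the retinoblastoma protein that restrains E2F factors, stood at 85.4, 84.8 and 89.4 CPM in controls 1 to 3 and 62.9, 52.5 and 65.5 CPM in mutants 1 to 3. It fell (log2 fold change -0.52, SE 0.10, 95% interval -0.75 to -0.29, adjusted p = 0.0210), and was no longer called when control 2 or 3, or mutant 1 or 2, was left out (edgeR adjusted p = 0.0502 to 0.0788). Cdk6, a kinase that pairs with cyclin D to inactivate that protein, stood at 56.6, 65.2 and 48.8 CPM in controls 1 to 3 and 37.7, 29.3 and 38.9 CPM in mutants 1 to 3. It fell as well (log2 fold change -0.68, SE 0.14, 95% interval -0.999 to -0.37, adjusted p = 0.0276), and was no longer called with control 1 or 2, or mutant 1 or 2, left out, or with the replicate block (adjusted p = 0.0523 to 0.125, and 0.0526 with the block).

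The other regulators, described whatever their p, did not pass the edgeR test on all 6 libraries. Ccnd1, the cyclin D1 gene, stood at 429.8, 377 and 465 CPM in the controls and 515, 553 and 517 CPM in the mutants, all mutants above all controls (log2 fold change 0.32, 95% interval 0.11 to 0.53, adjusted p = 0.129). Myc, a transcription factor gene that promotes growth, stood at 34.9, 42.2 and 56.4 CPM in the controls and 64.8, 65.5 and 63.4 CPM in the mutants, likewise with no overlap (log2 fold change 0.54, 95% interval 0.18 to 0.89, adjusted p = 0.127). DESeq2 called Myc (adjusted p = 0.0292), as did edgeR without control replicate 3 (adjusted p = 0.0137). Of the inhibitors of cyclin-dependent kinases, Cdkn1a (p21) stood at 154, 181 and 221 CPM in the controls and 249.8, 268 and 201 CPM in the mutants with overlapping groups (log2 fold change 0.37, 95% interval 0.034 to 0.70, adjusted p = 0.296). Cdkn1c (p57) stood at 38.6, 44.0 and 42.8 CPM in the controls and 33.3, 35.4 and 33.9 CPM in the mutants, all mutants below all controls (log2 fold change -0.29, 95% interval -0.51 to -0.072, adjusted p = 0.186), and Cdkn1b (p27) at 95.9, 95.8 and 104 CPM in the controls and 102, 88.1 and 101 CPM in the mutants (log2 fold change -0.026, 95% interval -0.23 to 0.18, adjusted p = 0.930). No overlap between groups was seen for 20.6% of all tested genes.

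**Figure D5:**
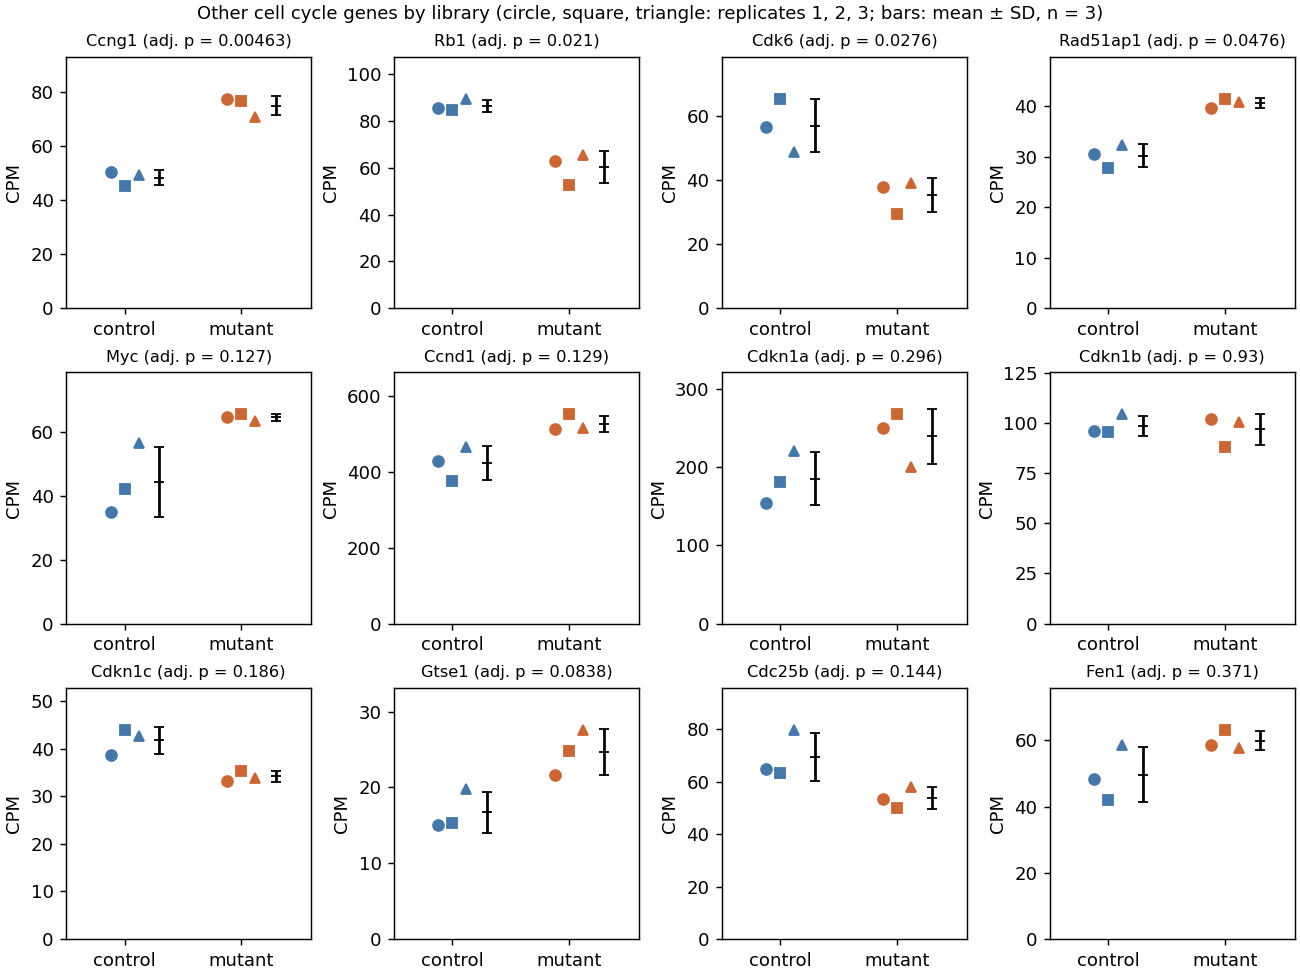
CPM by library for 12 cell cycle genes outside the 49, with y axes from 0; symbols are replicates 1, 2 and 3, bars the mean ± SD of 3 libraries, and each panel gives the edgeR adjusted p. Ccng1 and Rad51ap1 lie higher and Rb1 and Cdk6 lower in the mutants with no overlap, and the other 8 did not pass the test. Of those 8, Ccnd1, Myc, Gtse1, Cdkn1c and Cdc25b also show no overlap, as do 20.6% of all tested genes. The call of Rad51ap1 ended in most alternative runs.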

How the data were processed

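RNA of 6 libraries (3 control, 3 mutant) was analysed from the authors' deposited raw counts per gene symbol, with no normalization. Per-library files and the table of the series differed in 0 values. The submitters' processing notes name mm10 as the build and list DESeq2; aligner, counter, annotation and strand setting were not given in the sources used here. Reads with no feature (53.9% to 58.2% of a library, exact 95% binomial interval at most ± 0.0166 percentage points) and ambiguous reads (0.288% to 0.366%) were left out.

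Genes were filtered with filterByExpr, scaled by TMM and fitted over all genes in R 4.3.3 with edgeR 4.0.16 (robust quasi-likelihood F test, two-sided, mutant against control, no covariate, Benjamini-Hochberg over 14934 genes, threshold 0.05). The SE is the log2 fold change over the square root of F, and intervals use the fit's degrees of freedom. Alternatives were DESeq2 1.42.0, limma-voom (limma 3.58.1), other scaling factors, other filters, a replicate block and leaving out each library. The functions were tested on simulated data. Replicates of a group differed by more than sampling noise (chi-square per degree of freedom at least 12.3), and p-values measure the spread between these libraries only.

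The members and lists were chosen with earlier results of these data known. All 49 members could be named; each library's values are given for the member with the smallest p and the one with the largest mean CPM in each role group. From the other cell cycle lists, up to 4 called genes per direction (or the 2 with the smallest p where fewer than 2 were called) and Cdkn1a, Cdkn1b, Cdkn1c, Ccnd1 and Myc were named. Summed and median levels of a list are descriptions with no test. Marker lists also covered macrophages, neutrophils, lymphocytes and mesothelium, of which 10, 8, 8 and 5 genes were tested and 0 called by edgeR. Promoter sequences are RefSeq's on GRCm38.p6.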

Additional observations from a re-analysis of the deposited data

How the results depend on the processing

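The count of 0 called among the 49 genes was the same in each of the 14 alternatives. The median log2 fold change ran from 0.078 to 0.11 for mitotic and from 0.032 to 0.069 for replication genes over other tools, factors, filters and the block. Leaving out 1 library it ran from -0.024 to 0.25 and from -0.089 to 0.22, the ends being without control replicates 2 and 3, and 21 and 12 of the 49 values changed sign there. Where 1 library was left out, its group of 2 was taken to vary like the other. The ratio of summed CPM stayed within 0.957 to 1.14 for mitotic and 0.949 to 1.16 for replication genes. Over all genes edgeR called 488, DESeq2 754, and fits without 1 library 211 (without mutant replicate 2) to 428 (without control replicate 1), with 293 and 325 without control replicates 2 and 3; fewer libraries were in those fits. With the replicate number as a block 466 genes were called, and the medians were 0.11 and 0.069. Same-numbered libraries correlated in their deviations from the group means at -0.0096, 0.019 and 0.16, and not every library correlated best with its own number. The numbers are not said to mark pairs, and with so few libraries these correlations cannot settle whether they do. Each member had at least 158 counts in every library.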

Other observations

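The balance between the mitotic and the replication genes varied from library to library without separating the groups. The summed CPM of the 25 mitotic genes divided by that of the 24 replication genes was 1.30, 1.43 and 1.35 in controls 1 to 3 and 1.38, 1.28 and 1.36 in mutants 1 to 3. Control replicate 2, the library lowest in both sets, had the highest ratio, and mutant replicate 2 the lowest. The sums are not scaled by gene length, so the ratio compares libraries and not the abundance of the sets. In mutant replicate 2 Mcm7 was at its highest of the 6 libraries (116 CPM) and Ccne2 at its lowest (16.9 CPM). These genes were picked out after their values were seen, and no test was made.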
